A study of Homo sapiens with 18 samples.

Results

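The 10 genes described here encode ligands and receptors that restrain T cells, NK cells or macrophages and were measured in OCI-AML3, a human acute myeloid leukaemia cell line described as wildtype in the labels. The members are CD274, PDCD1LG2, LGALS9, VSIR, CD276, PVR, NECTIN2, CD47, HAVCR2 and CD200. They were chosen by name, as the probes whose single gene symbol is a listed member, and all 10 had exactly 1 probe among the 17687 distinct symbols and 21448 probes of the table. The study exposed cells for 24 h to the solvent DMSO, to RG7112 at 2 µM or to HDM201 at 500 nM, in 6 biological replicates each, and measured total RNA on 18 arrays. Both compounds inhibit MDM2, the ubiquitin ligase that keeps the p53 protein low. The title of the series concerns immunity against leukaemia after transplantation of donor stem cells, and the comparison with DMSO asks what p53 activation does to the transcripts of these inhibitory molecules. The model is a single cell line without immune cells. There was 1 dose and 1 time point per compound. Separation of the cultures is not described in the labels, so the p-values rest on the spread among these arrays, which may be technical in part.

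Immune checkpoints are pairs of a ligand on the target cell and a receptor on the immune cell whose contact dampens activation. CD274 and PDCD1LG2 encode PD-L1 and PD-L2, the ligands of PD-1 on T cells. LGALS9 encodes galectin-9, a sugar-binding lectin that engages TIM-3, and TIM-3 itself is the product of HAVCR2, so this member is a receptor rather than a ligand and is also known from leukaemic stem cells. VSIR encodes VISTA, a B7-related protein of myeloid cells that acts as ligand and as receptor. CD276 encodes B7-H3, a B7 family protein with a receptor that is not settled. PVR and NECTIN2 encode CD155 and CD112, proteins of the nectin and nectin-like family, which bind the inhibitory receptor TIGIT and the activating receptor CD226. CD47 signals to SIRPα on macrophages and holds back phagocytosis, and CD200 restrains myeloid cells and T cells through CD200R1.

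The 250 bases upstream of the start site are shown for the pair of members that rose, LGALS9 and VSIR, and for CD274, whose signal stayed at the bottom of the range. They come from the RefSeq promoter table on GRCh38.p14, which held 8 of the 10 members. HAVCR2 and PDCD1LG2 are named only. Capitals mark matches on either strand to 5 motifs: the p53 decamer, the core of interferon-stimulated response elements (GAAA, then any 2 bases, then GAAA), the STAT site TTCNNNGAA, the GC box GGGCGG and the CCAAT box. The windows lie at chr17:27630938-27631187 on the plus strand for LGALS9, at chr10:71773521-71773770 on the minus strand for VSIR and at chr9:5450292-5450541 on the plus strand for CD274.
LGALS9: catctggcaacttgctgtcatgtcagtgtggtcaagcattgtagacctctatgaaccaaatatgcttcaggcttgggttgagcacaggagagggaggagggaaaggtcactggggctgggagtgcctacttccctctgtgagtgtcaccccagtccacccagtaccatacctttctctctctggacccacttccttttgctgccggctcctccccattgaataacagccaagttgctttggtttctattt
VSIR: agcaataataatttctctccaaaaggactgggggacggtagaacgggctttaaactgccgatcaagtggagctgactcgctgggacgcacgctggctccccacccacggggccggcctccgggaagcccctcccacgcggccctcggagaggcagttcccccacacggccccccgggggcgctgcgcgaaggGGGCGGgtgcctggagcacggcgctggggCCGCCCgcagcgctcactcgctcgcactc
CD274: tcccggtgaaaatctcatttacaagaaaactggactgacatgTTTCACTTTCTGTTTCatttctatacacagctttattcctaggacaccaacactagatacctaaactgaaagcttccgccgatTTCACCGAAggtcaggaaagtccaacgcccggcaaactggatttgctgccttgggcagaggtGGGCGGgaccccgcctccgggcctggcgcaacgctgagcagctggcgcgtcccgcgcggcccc

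The LGALS9 window held none of the 5 motifs and the VSIR window 2 GC boxes. The CD274 window held 2 overlapping interferon cores that begin 208 and 202 bases before the start site, a STAT site at 125 bases and a GC box at 63 bases. Among all 35116 upstream windows of the table, 3.02% held the interferon core, 6.57% the STAT site, 42.6% the GC box, 32% the CCAAT box and 5.57% the p53 decamer. No window of the 8 members held a p53 decamer, which says only that these letters are not in these bases. Other matches among the members were GC boxes at CD47, CD276 and NECTIN2 and a CCAAT box at CD276.

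The values are log2 signals. The median of an array lay between 6.44 and 6.57, its lowest signal between 2.66 and 2.85 and its lower quartile between 4.57 and 4.79. Precision is limited by there being 6 arrays in each group. Both compounds raised the p53 targets CDKN1A and MDM2 (log2 changes of 3.97 and 2.57 with RG7112, 4.10 and 2.58 with HDM201). The labels name no sets among the replicates. The split into arrays 1 to 3 and 4 to 6 was taken from earlier results of these data. The p-values for the sets, here and below, are therefore not independent of that choice. Under DMSO, arrays numbered 1 to 3 stood above 4 to 6 by 1.65 for CDKN1A (limma adjusted p = 2.00e-06). For MDM2 this gap was 0.89 (adjusted p = 1.52e-04). CDKN1A changed by 3.57 with RG7112 and 3.66 with HDM201 within arrays 1 to 3, and by 4.36 and 4.54 within 4 to 6. The difference between these CDKN1A changes did not pass (adjusted p = 0.283 and 0.0728). Arrays numbered 1 to 3 differed from those numbered 4 to 6 at 1712 probes (7.98%) once the group means were in the model (adjusted p under 0.05), so changes within each set are given for LGALS9 and VSIR and for several partners. RG7112 replicate 3 had a narrower range of signal (interquartile range 3.45 against 3.70 to 3.91 on the other arrays). Of 10 measured myeloid markers only KIT lay below the lower quartile on every array. DMSO means were 12.70 for LYZ, 10.29 for SPI1, 9.90 for CEBPA, 9.46 for ANPEP and 7.27 for CSF1R. ITGAM, CD14, MPO and CD34 had DMSO means of 5.89, 5.78, 5.41 and 5.05, below the median of every array. ITGAM rose by 2.09 with RG7112 and 2.18 with HDM201, SPI1 rose by 0.34 and 0.38, and no other myeloid marker passed. The summed log2 signals of the myeloid markers ran from 74.5 to 77.0 under DMSO, 77.2 to 80.2 under RG7112 and 77.5 to 80.0 under HDM201. ITGAM is part of these sums and had the largest change among these markers. The part of the myeloid markers in the changes below was not tested. Of 10 T and NK cell markers none passed in either comparison, and CD3D, CD3G, CD2 and KLRD1 lay below the lower quartile on every array. DMSO means were 4.76 for CD3E and 4.28 for GNLY. CD7, NKG7 and PRF1 had DMSO means of 7.80, 7.65 and 6.99, above the median of every array. NCAM1, which encodes CD56, had a DMSO mean of 11.78. Summed log2 signals of the T and NK markers ran from 56.9 to 58.4 under DMSO, 56.8 to 58.6 under RG7112 and 57.2 to 58.3 under HDM201. In the remaining marker lists CD79B and KRT8 rose with RG7112 and EPCAM fell with HDM201. EPCAM was at the bottom of the range, below the lower quartile on 5 of 6 DMSO arrays and on every treated array.

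LGALS9 rose with both compounds and had the largest change among the 10 genes. On the 6 DMSO arrays its signal ran from 8.62 to 9.11 with a median of 8.78. With RG7112 the lowest array stood at 9.57, the median at 10.02 and the highest at 10.61, and with HDM201 these values were 10.12, 10.44 and 11.00. Every treated array therefore lay above every DMSO array. Galectin-9 message was 2.41-fold higher with RG7112 (log2 change 1.27 ± 0.17 SE, 95% interval 0.90 to 1.63, limma adjusted p = 2.60e-05). HDM201 gave a 3.19-fold rise (1.67 ± 0.17 SE, 95% interval 1.31 to 2.04, adjusted p = 5.70e-07). Within replicates 1 to 3 the changes were 1.41 and 1.98, and within 4 to 6 they were 1.12 and 1.37. The difference between the sets did not pass for RG7112 (adjusted p = 0.883) or HDM201 (adjusted p = 0.816). RG7112 replicate 3 was the lowest array of its group, and without it the change was 1.37.

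LGALS9 has near-identical copies, LGALS9B and LGALS9C, and their probes moved alongside it. LGALS9C went from a DMSO mean of 7.56 to 8.71 with RG7112 and 9.06 with HDM201 (2.23-fold and 2.84-fold, SE 0.17 on the log2 scale). LGALS9B went from 8.28 to 9.27 and 9.49 (1.99-fold and 2.31-fold, SE 0.15 on the log2 scale). All 4 of these changes passed (adjusted p from 1.30e-06 to 5.02e-05). Both copies lie outside the rule for naming genes and are shown because the probe sets of such copies can read each other's transcripts, so the share of each gene in these rises is uncertain.

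VSIR also rose with both compounds, by a smaller amount. Its signal ran from 8.21 to 8.53 on the DMSO arrays (median 8.39), from 8.85 to 9.06 with RG7112 (median 8.91) and from 8.82 to 9.18 with HDM201 (median 9.00). The treated arrays did not overlap with DMSO in either comparison. VISTA message rose 1.45-fold with RG7112 (0.54 ± 0.08 SE, 95% interval 0.37 to 0.71, adjusted p = 6.00e-05) and 1.54-fold with HDM201 (0.62 ± 0.08 SE, 95% interval 0.46 to 0.79, adjusted p = 6.65e-06). Replicates 1 to 3 alone gave 0.57 for RG7112 and 0.68 for HDM201, and replicates 4 to 6 alone gave 0.51 and 0.57. In bulk RNA a change in the share of cells that express a gene and a change in RNA per cell cannot be told apart.

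**Figure D1:**
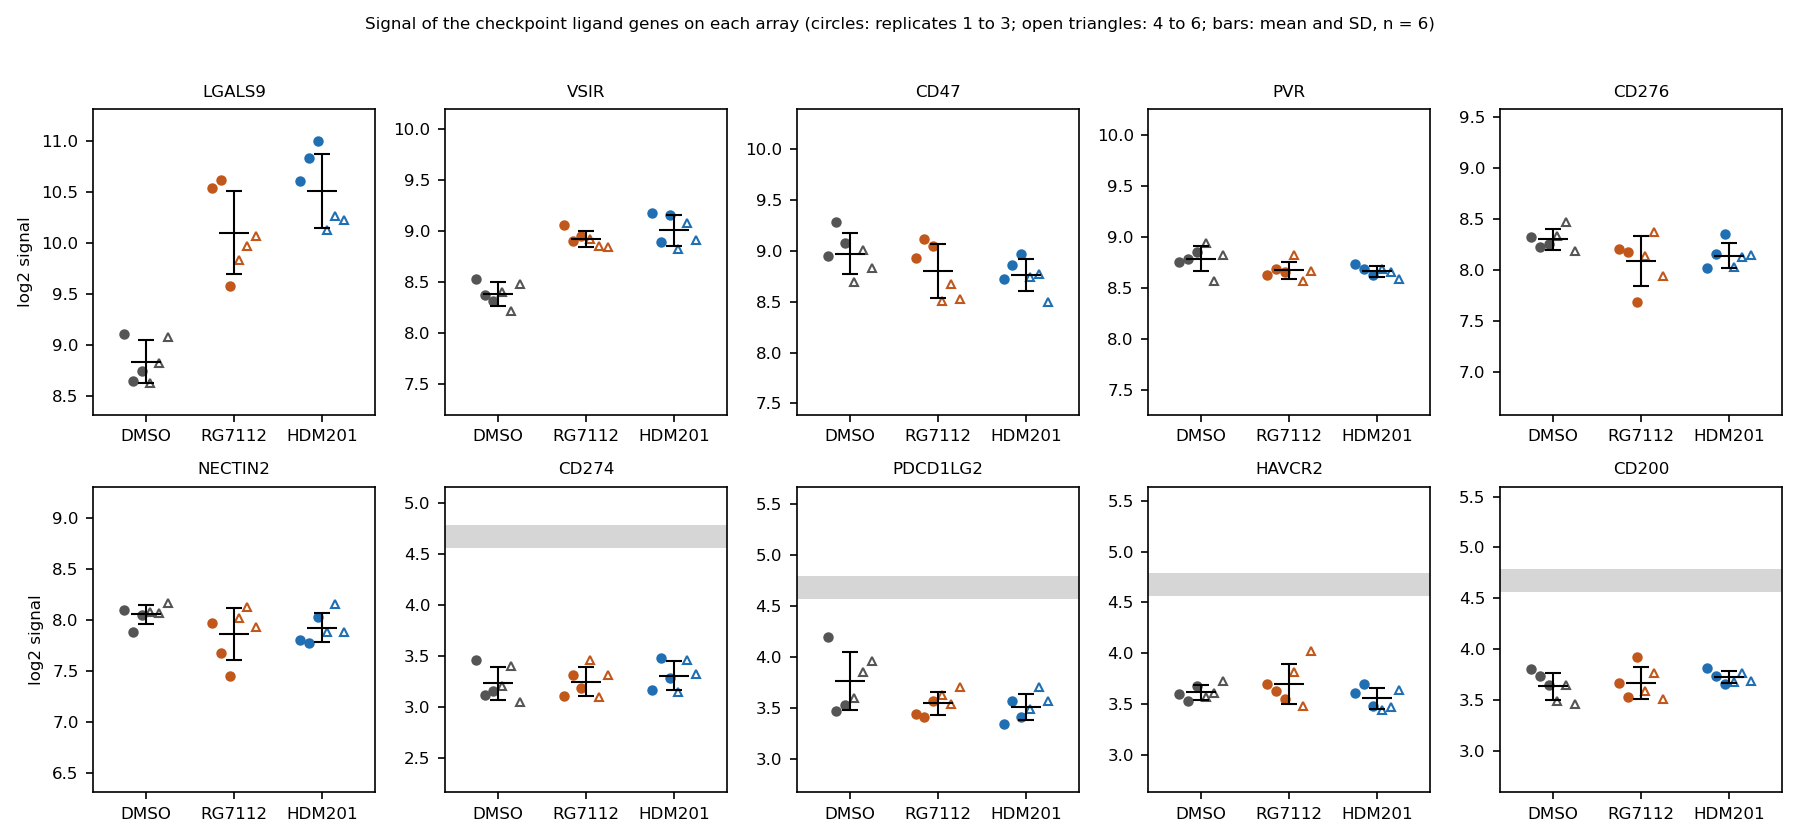
Log2 signal (vertical axis, each panel spanning 3 units) of the 10 checkpoint genes on the 6 arrays of each group. Filled circles are replicates 1 to 3, open triangles replicates 4 to 6, bars the mean and SD, and the grey band the range of the arrays' lower quartiles (4.57 to 4.79). LGALS9 and VSIR are higher on every treated array than on any DMSO array, and CD274, PDCD1LG2, HAVCR2 and CD200 stay below the band on all 18 arrays.

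PVR and NECTIN2, the ligands of the TIGIT and CD226 pair, had estimates slightly below 0 that did not pass. PVR ran from 8.57 to 8.95 on DMSO arrays (median 8.81), from 8.57 to 8.82 with RG7112 (median 8.67) and from 8.59 to 8.74 with HDM201 (median 8.67). The treated PVR arrays overlapped with the DMSO arrays. Its change was -0.12 ± 0.07 SE with RG7112 (95% interval -0.26 to 0.03, adjusted p = 0.281) and -0.12 ± 0.07 SE with HDM201 (95% interval -0.27 to 0.02, adjusted p = 0.270). NECTIN2 ran from 7.89 to 8.17 under DMSO (median 8.08), from 7.45 to 8.13 with RG7112 (median 7.95) and from 7.78 to 8.16 with HDM201 (median 7.89). The groups overlapped, and RG7112 replicate 3 was the lowest NECTIN2 array. The NECTIN2 change was -0.19 ± 0.10 SE with RG7112 (95% interval -0.41 to 0.02, adjusted p = 0.207) and -0.11 without that replicate. With HDM201 it was -0.13 ± 0.10 SE (95% interval -0.35 to 0.08, adjusted p = 0.438).

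CD276, the gene of B7-H3, gave a similar picture. Its signal ran from 8.19 to 8.47 under DMSO (median 8.29), from 7.69 to 8.38 with RG7112 (median 8.16) and from 8.02 to 8.36 with HDM201 (median 8.14). RG7112 replicate 3 was again the lowest array. Of the other RG7112 arrays 3 lay below every DMSO array and 2 lay within the DMSO range. The change was -0.21 ± 0.10 SE with RG7112 (95% interval -0.42 to -0.01, unadjusted p = 0.0436, adjusted p = 0.150) and -0.13 without that array. HDM201 gave -0.16 ± 0.10 SE (95% interval -0.37 to 0.04, adjusted p = 0.307).

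CD47, the signal against phagocytosis, did not pass in either comparison but differed between the replicate sets. Its signal ran from 8.69 to 9.28 under DMSO (median 8.98), from 8.50 to 9.12 with RG7112 (median 8.80) and from 8.50 to 8.97 with HDM201 (median 8.75). The groups overlapped widely. The CD47 change was -0.17 ± 0.12 SE with RG7112 (95% interval -0.42 to 0.08, adjusted p = 0.353) and -0.21 ± 0.12 SE with HDM201 (95% interval -0.46 to 0.04, adjusted p = 0.261). Across the 3 groups replicates 1 to 3 stood 0.30 ± 0.07 SE above replicates 4 to 6 (adjusted p = 0.0113). The set means were 9.10 ± 0.17 and 8.84 ± 0.16 (SD, n = 3) under DMSO, 9.03 ± 0.10 and 8.57 ± 0.09 under RG7112, and 8.85 ± 0.12 and 8.67 ± 0.15 under HDM201. With the sets as a term in the model the adjusted p of the CD47 change was 0.185 for RG7112 and 0.0988 for HDM201. No other gene of the 10 passed the test of the sets, where LGALS9 (0.30 ± 0.13 SE, adjusted p = 0.188) and NECTIN2 (-0.17 ± 0.07 SE, adjusted p = 0.183) had the next smallest p.

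The PD-1 ligand genes stayed at the bottom of the signal range in every group, below the lower quartile on all 18 arrays. CD274 ran from 3.05 to 3.46 under DMSO (median 3.18), from 3.10 to 3.46 with RG7112 (median 3.25) and from 3.15 to 3.48 with HDM201 (median 3.30), so the groups covered nearly the same range. Its change was 0.02 ± 0.09 SE with RG7112 (95% interval -0.18 to 0.21, adjusted p = 0.933) and 0.08 ± 0.09 SE with HDM201 (95% interval -0.11 to 0.27, adjusted p = 0.654). PDCD1LG2 ran from 3.47 to 4.20 under DMSO (median 3.72), from 3.41 to 3.70 with RG7112 (median 3.55) and from 3.34 to 3.70 with HDM201 (median 3.52). DMSO replicate 1 was the highest PDCD1LG2 array. The change was -0.22 ± 0.11 SE with RG7112 (adjusted p = 0.180) and -0.26 ± 0.11 SE with HDM201 (unadjusted p = 0.0301, adjusted p = 0.119), and without DMSO replicate 1 these values were -0.13 and -0.17. A difference in PD-L1 or PD-L2 message was not detected, which does not show that the transcripts are absent or alike between groups.

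HAVCR2 and CD200 were likewise below the lower quartile on all 18 arrays. HAVCR2, the gene of the galectin-9 receptor TIM-3, ran from 3.53 to 3.73 under DMSO, from 3.48 to 4.03 with RG7112 and from 3.44 to 3.70 with HDM201. Its estimate was above 0 with RG7112 and below 0 with HDM201, and neither passed (0.08 ± 0.09 SE, adjusted p = 0.572, and -0.06 ± 0.09 SE, adjusted p = 0.706). CD200 ran from 3.47 to 3.81, from 3.51 to 3.92 and from 3.66 to 3.82 in the same order of groups. Its estimates were 0.03 ± 0.08 SE (adjusted p = 0.845) and 0.09 ± 0.08 SE (adjusted p = 0.528).

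**Figure D2:**
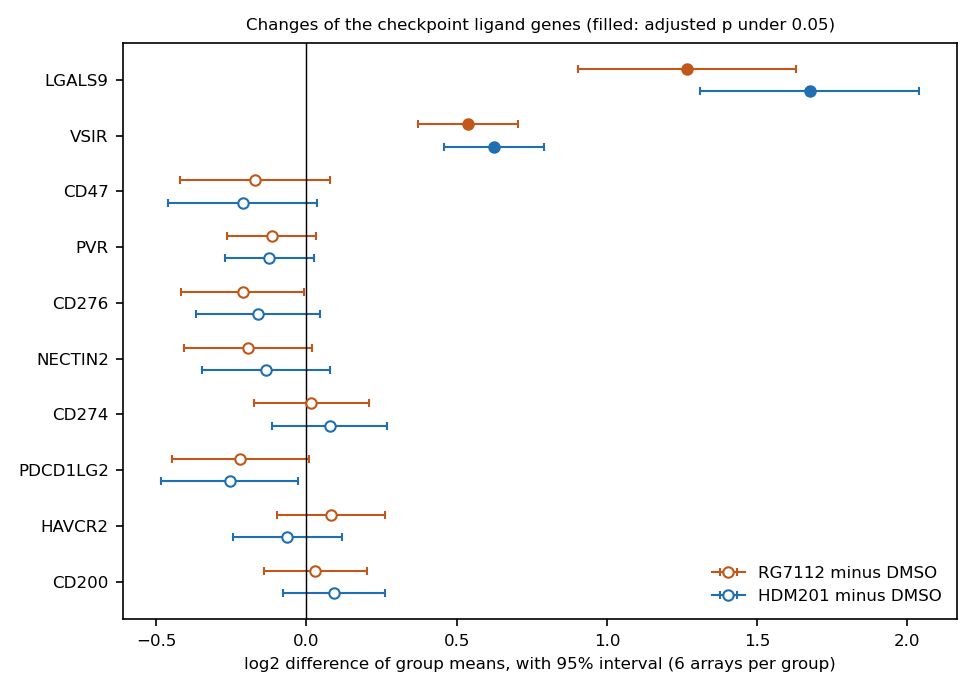
Log2 difference of group means with its 95% interval (horizontal axis) for each of the 10 genes, RG7112 minus DMSO in orange and HDM201 minus DMSO in blue, from 6 arrays per group. Filled points passed at an adjusted p under 0.05. LGALS9 and VSIR lie to the right of 0 with both compounds, and the intervals of the other genes reach from -0.48 to 0.27.

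In each comparison with DMSO, 2 of the 10 genes rose, 0 fell and 8 missed the threshold of an adjusted p under 0.05 in limma. Over all probes 17.5% passed with RG7112 (7.9% higher and 9.61% lower) and 18.8% with HDM201 (9.16% higher and 9.64% lower), so the share of the 10 genes that passed is near that of all probes. CD276 with RG7112 and PDCD1LG2 with HDM201 were the genes with lower estimates at an unadjusted p under 0.05, which 6542 of 21448 probes reached with RG7112 and 6241 with HDM201. The median change of the 10 genes was -0.05 with RG7112 and -0.09 with HDM201, and over all probes it was 0.03 and 0.02. Arrays that did not overlap and were higher than DMSO were found for 2 of the 10 genes, LGALS9 and VSIR, in each comparison, and for 4.29% of all probes with RG7112 and 6.63% with HDM201. Arrays that did not overlap and were lower were found for 0 of the 10 genes, and for 5.61% and 6.92% of all probes. Both comparisons share the DMSO arrays. The LGALS9 change exceeded that of 99.3% of all probes with RG7112 and 99.5% with HDM201, and the VSIR change exceeded 96.4% and 96.5%. CD47 and CD276 stood above 20.3% and 17.2% of probes with RG7112 and above 16% and 19.7% with HDM201.

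**Figure D3:**
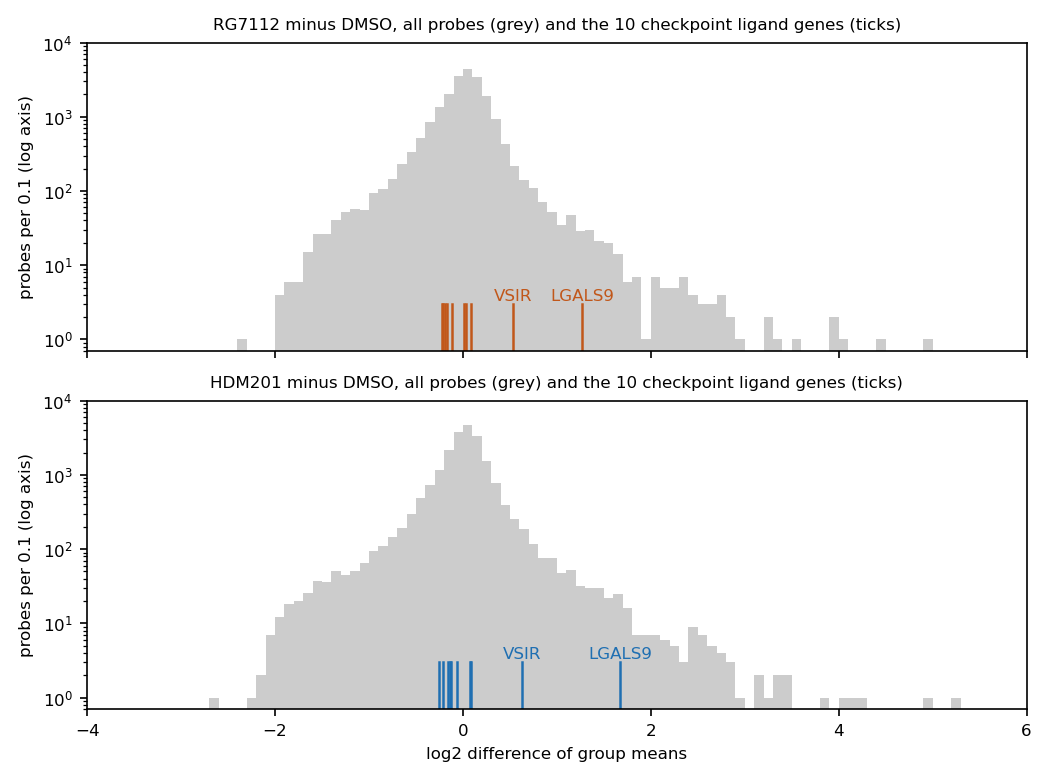
Number of probes per 0.1 of log2 difference (vertical log axis) for RG7112 minus DMSO and HDM201 minus DMSO, with the 10 checkpoint genes as coloured ticks. LGALS9 (1.27 and 1.67) and VSIR (0.54 and 0.62) lie in the right flank, and the other 8 genes lie between -0.26 and 0.09, inside the central peak.

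Set against each other, the compounds gave no difference that passed for any of the 10 genes, and 0% of all probes passed. For 0 of the 10 genes were the arrays of the compounds free of overlap, against 0.042% of all probes that were higher with HDM201 and another 0.042% that were lower. The doses differed, 2 µM of RG7112 and 500 nM of HDM201. LGALS9 was 0.41 ± 0.17 SE higher with HDM201 (95% interval 0.04 to 0.77, unadjusted p = 0.0299, adjusted p = 0.991), and it was the single gene of the 10 at an unadjusted p under 0.05, as were 749 of all 21448 probes. Its arrays overlapped between the compounds. The VSIR difference was 0.09 ± 0.08 SE (95% interval -0.08 to 0.25). For the other 8 genes the differences ran from -0.14 for HAVCR2 to 0.06 for CD274, and their intervals reached from -0.32 to 0.27.

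Genes that act with these ligands were taken from lists of receptors and other checkpoint ligands, of soluble and enzymatic suppressors, of regulators of PD-L1 and of the enzymes that modify CD47. Of 76 measured genes 12 rose and 3 fell with RG7112, and 13 rose and 2 fell with HDM201, with median changes of 0.05 and 0.09. These 15 of 76 genes with each compound are a share near the 17.5% and 18.8% of all probes that passed. Among the 37 receptors and other ligands 8 rose and 0 fell with each compound, where 7.9% and 9.16% of all probes were higher and 9.61% and 9.64% lower. Of the 15 suppressors CD38, an enzyme that consumes NAD, rose and HMGB1, a chromatin protein that is released from dying cells, fell with both. Of the 22 regulators of PD-L1 3 rose and 2 fell with RG7112, and 4 rose and 1 fell with HDM201. QPCT and QPCTL, the glutaminyl cyclases (QPCTL shapes the site on CD47 that SIRPα binds), did not pass.

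CEACAM1 and TREM2 had larger changes than any of the 10 genes. CEACAM1, an adhesion protein that has been described as a TIM-3 ligand, ran from 4.31 to 5.03 under DMSO (median 4.52), from 6.40 to 8.69 with RG7112 (median 6.86) and from 6.52 to 8.92 with HDM201 (median 7.77). It rose 6.53-fold with RG7112 (2.71 ± 0.42 SE, adjusted p = 1.01e-04) and 9.25-fold with HDM201 (3.21 ± 0.42 SE, adjusted p = 9.39e-06), but 3 of its 6 DMSO arrays lay below the lower quartile, so these folds are measured against a baseline at the bottom of the range and are uncertain as sizes. Within replicates 1 to 3 the CEACAM1 changes were 3.23 and 4.00, and within 4 to 6 they were 2.19 and 2.42. NECTIN4, a nectin that has been reported to bind TIGIT, rose 2.26-fold with RG7112 (1.18 ± 0.17 SE, adjusted p = 3.97e-05) and 2.37-fold with HDM201 (1.24 ± 0.17 SE, adjusted p = 1.35e-05), with no treated array at or below a DMSO array. Its changes within replicates 1 to 3 were 1.57 and 1.64, and replicates 4 to 6 gave 0.79 and 0.84. TREM2, a myeloid receptor with suppressive roles in tumours, rose 5.13-fold and 6.00-fold (2.36 ± 0.23 SE and 2.59 ± 0.23 SE, adjusted p = 4.24e-07 and 6.95e-08).

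THBS1 encodes thrombospondin-1, a secreted ligand of CD47, and its response differed between the replicate sets. It ran from 5.61 to 6.25 under DMSO (median 6.03), from 6.27 to 8.32 with RG7112 (median 7.41) and from 6.22 to 8.62 with HDM201 (median 7.59). The pooled changes were 1.43 ± 0.37 SE (adjusted p = 0.0102) and 1.52 ± 0.37 SE (adjusted p = 0.00539). Within replicates 1 to 3 THBS1 rose by 2.35 and 2.47. Within replicates 4 to 6 the values were 0.51 and 0.58, which did not pass (adjusted p = 0.163 and 0.0995). The difference of the response between the sets was 1.85 with RG7112 (adjusted p = 0.0250) and 1.89 with HDM201 (adjusted p = 0.0131), where 0.0373% and 0.149% of all probes passed this test.

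**Figure D4:**
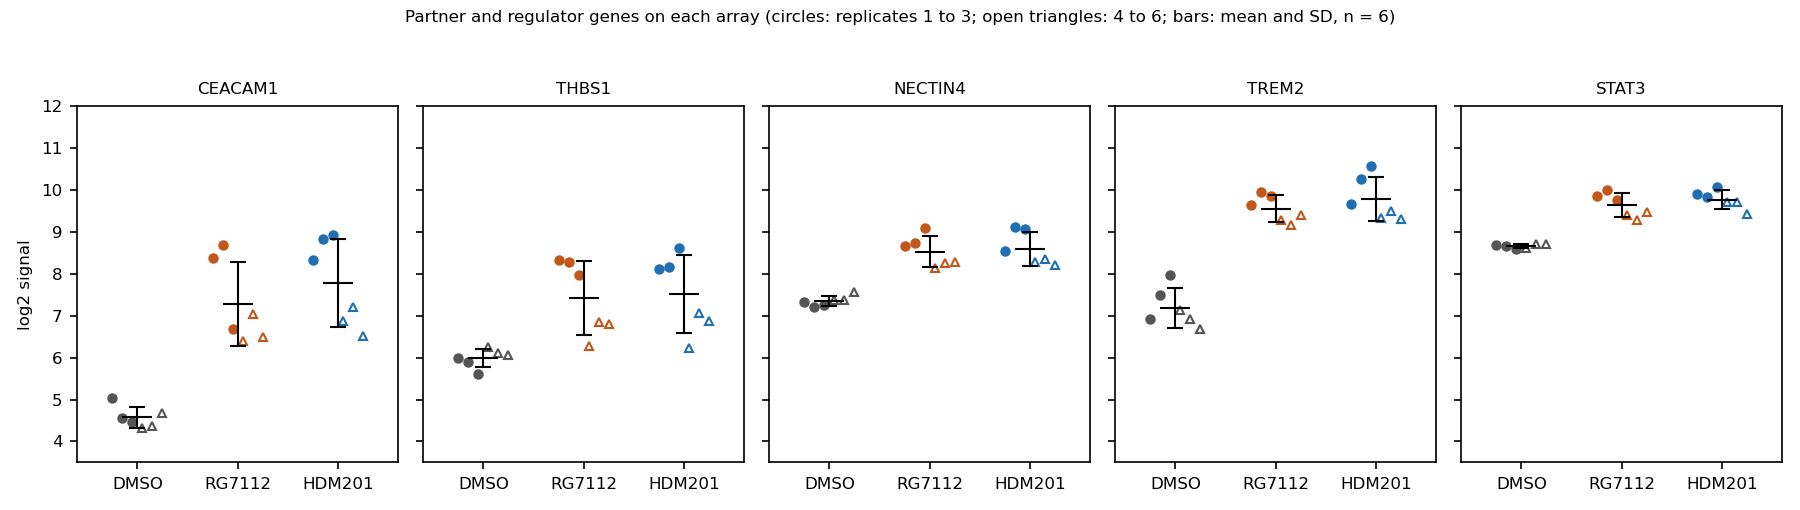
Log2 signal (vertical axis) of CEACAM1, THBS1, NECTIN4, TREM2 and STAT3 on the 6 arrays of each group, with filled circles for replicates 1 to 3, open triangles for replicates 4 to 6 and bars for the mean and SD. Against a DMSO maximum of 6.25, THBS1 lies between 6.27 and 6.86 in RG7112 replicates 4 to 6 and between 6.22 and 7.07 in HDM201 replicates 4 to 6, below every treated array of replicates 1 to 3. TREM2 and STAT3 are higher on every treated array.

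Among regulators of PD-L1, STAT3, a transcription factor that can act on the CD274 promoter, rose 1.96-fold with RG7112 (0.97 ± 0.12 SE, adjusted p = 5.47e-06) and 2.16-fold with HDM201 (1.11 ± 0.12 SE, adjusted p = 6.57e-07). STAT3 changed by 1.24 and 1.29 within replicates 1 to 3 and by 0.71 and 0.93 within 4 to 6. GSK3B, a kinase that marks PD-L1 protein for breakdown, rose by 0.39 ± 0.09 SE and 0.50 ± 0.09 SE (adjusted p = 0.00354 and 3.01e-04). The RG7112 change of GSK3B did not pass within replicates 1 to 3 alone (adjusted p = 0.0737). MYC, which can bind the promoters of CD274 and CD47, fell by 0.54 and 0.55 on the log2 scale (adjusted p = 0.0156 and 0.0123). The MYC values were -0.77 and -0.74 within replicates 1 to 3 and -0.32 and -0.36 within 4 to 6. The differences between the sets did not pass for NECTIN4, STAT3 or MYC (adjusted p from 0.214 to 0.833). TLR4, an innate receptor, differed by 0.48 ± 0.17 SE with RG7112 (adjusted p = 0.0554) and rose by 0.64 ± 0.17 SE with HDM201 (adjusted p = 0.00920). The RG7112 value of TLR4 passed with array weights (adjusted p = 0.00973), with either filter on dim probes (0.0463 and 0.0366), after a further quantile normalization (0.0448), and without DMSO replicate 1 (0.0244), RG7112 replicate 3 (0.0118), RG7112 replicate 4 (0.0396) or HDM201 replicate 4 (0.0407). The HDM201 call was lost within replicates 1 to 3 (0.159) and within 4 to 6 (0.0632), and the difference between the compounds did not pass. CD274 itself did not leave the bottom of the range on any array, as given above.

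Of the listed binding partners of the members, PVRIG, an inhibitory receptor for NECTIN2, passed with RG7112 (0.35 ± 0.11 SE, adjusted p = 0.0318) and not with HDM201 (0.26 ± 0.11 SE, adjusted p = 0.117). Without RG7112 replicate 3 the PVRIG change with RG7112 was 0.24. PDCD1, the gene of PD-1, is a listed partner but had no probe with a single symbol and was not measured. The PVRIG call with RG7112 was lost without DMSO replicate 4 (adjusted p = 0.0744), DMSO replicate 6 (0.0765) or RG7112 replicate 5 (0.0524), with each array median subtracted (0.0509), after a further quantile normalization (0.0595), on the 12 arrays compared (0.0729) and within either set (0.261 and 0.108). With HDM201 it passed without RG7112 replicate 3 (0.0134), with array weights (0.0122) and on the 12 arrays compared (0.0204). SIRPA, the receptor of CD47, ran from 10.16 to 10.31 under DMSO and differed by -0.07 ± 0.08 SE and 0.01 ± 0.08 SE (adjusted p = 0.599 and 0.938). TIGIT, CD226, CD80, CD96 and CD200R1 did not pass, with estimates from -0.28 for CD226 with RG7112 to 0.12 for CD200R1 with HDM201, and CD80, CD96 and CD200R1 lay below the lower quartile on every array. Without RG7112 replicate 3 the CD226 estimate was -0.08.

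The genes with the pattern most like a member were found by the mean absolute difference of log2 values centred on each gene's mean, over 18 arrays. For LGALS9 these were its copy LGALS9C (0.0925), PSTPIP2 (0.142) and TTYH3 (0.157). PSTPIP2, which encodes an adaptor of the actin cytoskeleton in myeloid cells, changed by 1.40 with RG7112 and 1.84 with HDM201. For VSIR they were GRINA (0.0664), HEXA (0.0825) and TMEM129 (0.0855). HEXA, the lysosomal enzyme beta-hexosaminidase A, changed by 0.55 and 0.65, and GRINA, a membrane protein of the TMBIM family, by 0.45 and 0.53.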

How the data were processed

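Total RNA of OCI-AML3 cells was measured on 18 arrays, 6 per group. The authors deposited log2 signals made with oligo and RMA, per the submitters' processing notes, a method that subtracts background, makes the arrays' distributions equal and combines each probe set into 1 value. For versions and genome build, the sources used here give none. All 18 columns were used. GEO's platform annotation gave 17709 of 21448 probes exactly 1 symbol. For the 20 symbols with more than 1 probe, the probe with the highest mean was taken. Groups came from the sample titles.

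The fit of all probes used limma 3.58.1 (R 4.3.3), a mean for each group from the 18 arrays and eBayes with default settings. It was also run on simulated data with independent noise and no replicate sets, so that run does not cover the sets. A probe passed, "rose" or "fell" at a Benjamini-Hochberg adjusted p under 0.05 over all probes. Intervals are 95%. The sets of replicates 1 to 3 and 4 to 6 were tested as a term and as an interaction with the compound, also adjusted over all probes. Depth per array is described by the signal ranges in the report, and RMA values carry no detection call, so "bottom of the range" means below an array's lower quartile.

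Named are all members, listed partners that bind them, and up to 4 passing genes with the largest change per list. The members, lists, sets and rules were chosen with earlier results of these data known. Alternatives were a signal-dependent robust prior, array weights, 2 filters on dim probes, 1-symbol probes only, median subtraction, further quantile normalization, the 12 arrays compared, replicate number as block, the sets as a term, each set alone, and leaving out each array. Averaging the probes of a gene was not needed, since each member has 1 probe.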

Additional observations from a re-analysis of the deposited data

Results flagged for a closer look

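THBS1, the CD47 ligand gene, had a response that differed between the replicate sets: the change within replicates 1 to 3 exceeded that within 4 to 6 by 1.85 with RG7112 (adjusted p = 0.0250) and by 1.89 with HDM201 (adjusted p = 0.0131).

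Single arrays stood far from the other 5 of their group in 4 of the 87 groups of 6 arrays that were checked. How many such arrays chance alone would give was not tested. CD226 on RG7112 replicate 3 was 5.31, with the other arrays at 6.27 to 6.77, and without it the CD226 change was -0.08 instead of -0.28. PVRIG on the same array was 7.09, with the others at 6.30 to 6.54, and without it the PVRIG change was 0.24 instead of 0.35. RG7112 replicate 3 is also the array with the narrower interquartile range (3.45). CD200R1 was 3.90 on DMSO replicate 1 (others 3.25 to 3.42) and 3.85 on HDM201 replicate 3 (others 3.43 to 3.55), all below the lower quartile. None of the 10 checkpoint genes had such an array.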

How the results depend on the processing

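LGALS9 and VSIR passed with both compounds under all 12 other settings and without each of the 18 arrays, with LGALS9 changes of 1.12 to 1.98 and VSIR changes of 0.49 to 0.68, and no other checkpoint gene passed in any of these fits. CD274, PDCD1LG2, HAVCR2 and CD200 could not be tested after dim probes were left out. Probes passing fell to 1973 and 2148 with RG7112 and to 2504 and 2595 with HDM201 within replicates 1 to 3 and 4 to 6 alone, where fewer arrays enter. Without 1 array these counts ran from 3074 to 4085 (3757 with all) and from 3374 to 5212 (4032 with all). Between the compounds they ran from 0 to 1, and the 1 arose without HDM201 replicate 6.

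Same-numbered arrays deviated together, with a correlation over 0.1, in 16 of 18 pairs (all correlations from 0.0168 to 0.440), and 14 of 18 arrays correlated best with their own number, which is a hint from the data and not the design. Deviations were taken from the group means only, and same-numbered arrays share a replicate set. A positive correlation therefore does not separate the number from the set. With the replicate number as a block, 4780 and 4866 probes passed with RG7112 and HDM201, the same 2 of the 10 checkpoint genes passed, and CD47 had adjusted p = 0.137 and 0.0661. TLR4 passed with RG7112 under the block (adjusted p = 4.21e-04).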
